A study of Mus musculus with 4 samples.

Results

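The 8 genes described here encode the cyclins and cyclin-dependent kinases of G1, namely the cyclin D genes Ccnd1, Ccnd2 and Ccnd3, their kinases Cdk4 and Cdk6, the cyclin E genes Ccne1 and Ccne2, and their kinase Cdk2. They were picked by gene symbol from the 33565 genes of the count matrices, all 8 were found, and all 8 had UMIs in each of the 3 cell lines. RNA was counted cell by cell in N2a, a mouse neuroblastoma line, NIH/3T3, a mouse embryonic fibroblast line, and mESCs of the E14TG2a embryonic stem cell line, all in 1 library and with no replicate cultures. N2a and NIH/3T3 cells were grown in DMEM with 10% fetal bovine serum. The mESCs were grown on gelatin with 15% serum, 1000 U/ml of leukemia inhibitory factor, 3 μM of the GSK3 inhibitor CHIR99021 and 1 μM of the MEK inhibitor PD0325901, so that line and medium cannot be told apart. The lines were marked by separate sets of BC1, the barcode segment tied to the position on the first barcoding plate.

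Cyclin D proteins are made in response to growth signals, bind CDK4 or CDK6 and start the phosphorylation of the retinoblastoma protein, which holds back the E2F factors. E2F factors then drive transcription of the cyclin E genes, and cyclin E bound to CDK2 carries the cell into S phase. The members of each family can stand in for each other to a large degree, and tissues and cell lines are known to differ in which paralog they use. Which D and E cyclin each line used was the question of the comparisons below.

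Cells of 1000 UMIs or more, of which no more than 20% were mitochondrial, were kept. This left 2323 N2a cells with a median of 6185 UMIs, 2037 NIH/3T3 cells with 4863 and 2137 mESCs with 4803. Levels are UMIs of a gene per 1000000 UMIs summed over the cells of a line (CPM). The 95% intervals are exact Poisson intervals for levels and ratios and exact binomial intervals for shares, and they cover counting error only. Each line also had 32 BC1 sequences of 33 to 102 cells, and the range over them is the technical spread within 1 library, not a spread between replicates. No test between lines was possible and no p-value is given. Of the marker genes chosen for each line, 4 of 6 were highest past 2-fold in N2a, 6 of 6 in NIH/3T3 and 6 of 6 in mESCs. The N2a marker Hand2 had 404.2 CPM in N2a, while Gata3 had 3.84 CPM there and was highest in mESCs, at 8.44 CPM.

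The D cyclins lie at chr7:144483668-144493662 (Ccnd1, minus strand), chr6:127102125-127129156 (Ccnd2, minus strand) and chr17:47815767-47910624 (Ccnd3, plus strand) of GRCm39. Their kinases lie at chr10:126895180-126903789 (Cdk4, plus strand) and chr5:3391485-3581008 (Cdk6, plus strand). The E cyclins lie at chr7:37797404-37808264 (Ccne1, minus strand) and chr4:11190303-11204947 (Ccne2, plus strand), and Cdk2 at chr10:128533796-128540963 on the minus strand. All 8 overlapped an annotated gene on the opposite strand, and the strand setting of the counting is not given in the sources used here. Of those neighbours in the matrices, Tspan31 at Cdk4 had the highest level in N2a and NIH/3T3, with 119.6 and 119.5 CPM, and Ints8 at Ccne2 the highest in mESCs, with 94.6 CPM.

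The RefSeq promoter table held 6 promoters for 5 of the 8 genes, each from 250 bases before to 50 bases after a gene start on GRCm38.p6, a build other than that of the counts. The promoters of the 2 cyclin D kinases are shown because Cdk4 was counted at a like level in every line and Cdk6 was not, and those of Ccne1 and Cdk2 because both were counted more in cells with a high S phase score. Capitals mark matches to 3 motifs searched on both strands, namely CACGTG (the E-box bound by MYC and MAX) and TTTCCCGC and TTTGGCGC (forms of the E2F site). CACGTG was chosen after the sequences had been seen.
Cdk4, chr10:127063285-127063584, plus strand: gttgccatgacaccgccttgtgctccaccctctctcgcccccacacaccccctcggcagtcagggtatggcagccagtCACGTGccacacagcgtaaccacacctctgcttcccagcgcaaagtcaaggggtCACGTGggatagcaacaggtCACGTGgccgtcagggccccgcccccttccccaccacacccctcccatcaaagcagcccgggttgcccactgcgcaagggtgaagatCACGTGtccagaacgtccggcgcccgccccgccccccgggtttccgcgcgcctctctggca
Cdk6, chr5:3343643-3343942, plus strand: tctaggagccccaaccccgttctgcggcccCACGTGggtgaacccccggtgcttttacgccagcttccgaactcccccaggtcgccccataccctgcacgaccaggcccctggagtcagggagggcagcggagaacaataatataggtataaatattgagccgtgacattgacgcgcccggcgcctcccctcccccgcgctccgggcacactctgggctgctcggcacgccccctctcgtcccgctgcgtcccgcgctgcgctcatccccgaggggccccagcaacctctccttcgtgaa
Ccne1, chr7:38107441-38107740, minus strand: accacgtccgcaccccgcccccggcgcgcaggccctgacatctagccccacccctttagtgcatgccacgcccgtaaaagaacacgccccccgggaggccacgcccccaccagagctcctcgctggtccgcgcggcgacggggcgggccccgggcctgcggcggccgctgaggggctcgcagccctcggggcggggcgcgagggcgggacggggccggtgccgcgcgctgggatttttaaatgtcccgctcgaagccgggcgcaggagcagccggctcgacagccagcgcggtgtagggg
Cdk2, chr10:128705002-128705301, minus strand: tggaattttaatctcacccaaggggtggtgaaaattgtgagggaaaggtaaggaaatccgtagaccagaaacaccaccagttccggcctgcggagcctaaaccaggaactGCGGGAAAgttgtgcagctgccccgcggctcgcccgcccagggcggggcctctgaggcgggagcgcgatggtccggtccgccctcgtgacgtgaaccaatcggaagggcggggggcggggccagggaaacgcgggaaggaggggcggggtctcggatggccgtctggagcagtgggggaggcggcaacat
The Cdk4 window held 4 matches to CACGTG and the Cdk6 window held 1. Over 32851 promoters of the table, 7.15% held at least 1 match to CACGTG and 8 promoters held 4 or more. The Cdk2 window held TTTCCCGC on the reverse strand, where it reads GCGGGAAA, as did 1.07% of all promoters in either orientation, while TTTGGCGC was found in 0.514% of all promoters. The Ccne1 window and both Ccnd3 windows held none of the 3 motifs, which says only that these letters were absent from these windows.

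Ccnd1, the cyclin D gene best known as a target of growth factor and ERK signalling, was by far highest in NIH/3T3. Its level was 601.2 CPM in NIH/3T3 (95% interval 587.3 to 615.4), 74.9 in N2a (70.9 to 79.0) and 58.4 in mESCs (54.2 to 62.9). Over BC1 sequences it ran from 473.5 to 765.6 CPM in NIH/3T3, from 42.6 to 101.3 in N2a and from 37.2 to 86.7 in mESCs. The NIH/3T3 range thus lay above both others, which overlapped. NIH/3T3 stood 8.03-fold above N2a (7.58 to 8.52), and N2a stood 1.28-fold above mESCs (1.17 to 1.40), a difference within the spread over BC1 sequences. A Ccnd1 UMI was seen in 83.6% of NIH/3T3 cells, 37.1% of N2a cells and 23.4% of mESCs. In cells thinned to 1000 UMIs, which sets the same depth for all lines, these shares were 43.0%, 6.93% and 5.43%.

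Ccnd2, a D cyclin that is likewise induced by mitogens, was counted almost only in NIH/3T3 among the 3 lines. It had 317.7 CPM in NIH/3T3 (307.5 to 328.0), 3.00 in mESCs (2.11 to 4.14) and 0.167 in N2a (0.0345 to 0.488). The N2a value came from 3 UMIs in 3 of 2323 cells, and the mESC value from 37 UMIs in 34 of 2137 cells. Every BC1 sequence of NIH/3T3 had between 269.9 and 394.0 CPM, while 29 of the 32 in N2a and 13 of the 32 in mESCs were at 0. The ratio of NIH/3T3 to mESCs was 105.8 (76.6 to 150.5), and that of NIH/3T3 to N2a was 1901 (650 to 9224) on these few counts. RNA carried over from other cells gives a low count in cells that do not make it. As a share of its NIH/3T3 level, Ccnd2 was at 0.0526% in N2a, and the 6 fibroblast markers were at 0% (Thbs1), 0.0805% (Prrx1), 0.169% (Col1a2), 0.191% (Cav1), 0.195% (Col1a1) and 21.5% (Lgals1). In mESCs Ccnd2 was at 0.945%, and the markers were at 0.130% (Prrx1), 0.194% (Col1a2), 0.243% (Cav1), 2.56% (Col1a1), 3.597% (Lgals1) and 12.5% (Thbs1). Ccnd2 thus lay within the range of these markers in both lines, but the upper end of that range is a weak gauge. Lgals1 had 459.3 CPM in N2a, and Thbs1 rested on 38 UMIs in NIH/3T3 and 5 in mESCs. In mESCs Ccnd2 was above Prrx1, Col1a2 and Cav1 and below Col1a1 (9 UMIs), Lgals1 and Thbs1. Carried-over RNA and a low level of its own cannot be told apart by these values.

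Ccnd3, the most widely expressed D cyclin across tissues, had the reverse order of Ccnd1. It reached 168.2 CPM in mESCs (161.0 to 175.6), 49.8 in N2a (46.6 to 53.2) and 30.0 in NIH/3T3 (26.9 to 33.3). The lowest BC1 sequence of mESCs, at 120.0 CPM, was above the highest of N2a, at 75.4, and of NIH/3T3, at 47.8, whereas the N2a and NIH/3T3 ranges overlapped. The mESC level was 3.37-fold that of N2a (3.12 to 3.65) and 5.60-fold that of NIH/3T3 (5.00 to 6.29). After thinning, a Ccnd3 UMI was found in 15.9% of mESCs, 4.26% of N2a cells and 2.99% of NIH/3T3 cells.

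**Figure D1:**
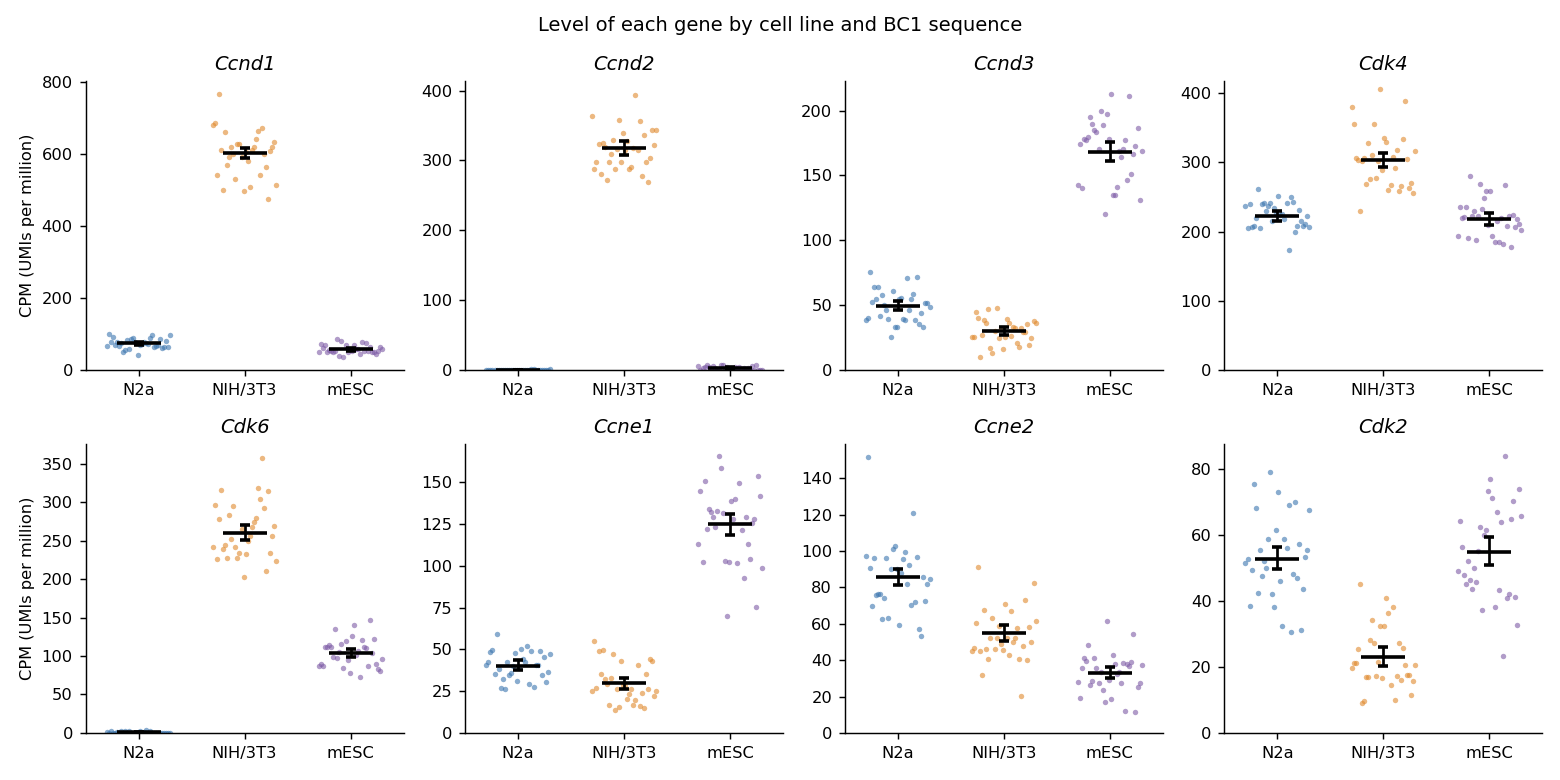
Level of each of the 8 genes in CPM (vertical axes, linear, from 0 and scaled per gene) for N2a, NIH/3T3 and mESCs. Each point is 1 of the 32 BC1 sequences of a line, the horizontal bar is the level over all cells of the line and the whiskers are its 95% Poisson interval; the point clouds of NIH/3T3 for Ccnd1, Ccnd2 and Cdk6 and of mESCs for Ccnd3 and Ccne1 lie apart from those of the other lines, while those of Cdk4 overlap.

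Summed over the 3 genes, cyclin D made up 948.9 CPM in NIH/3T3, 229.6 in mESCs and 124.9 in N2a. Of the 2242 cyclin D UMIs in N2a, 59.9% came from Ccnd1 (57.9% to 62.0%), 39.9% from Ccnd3 (37.9% to 42.0%) and 0.134% from Ccnd2. In NIH/3T3, 63.4% of 11100 UMIs came from Ccnd1 (62.5% to 64.3%), 33.5% from Ccnd2 (32.6% to 34.4%) and 3.16% from Ccnd3 (2.84% to 3.50%). In mESCs, 73.2% of 2829 UMIs came from Ccnd3 (71.6% to 74.9%), 25.5% from Ccnd1 (23.9% to 27.1%) and 1.31% from Ccnd2. By UMIs as counted, N2a thus had Ccnd1 with Ccnd3, NIH/3T3 had Ccnd1 with Ccnd2, and mESCs had mostly Ccnd3. The Ccnd3 share in single BC1 sequences ran from 63.6% to 81.2% in mESCs, from 22.6% to 52.9% in N2a and from 1.11% to 5.10% in NIH/3T3, with no overlap between lines.

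The number of UMIs can depend on the length of a gene, so the shares were also computed from UMIs per exonic length (4783 bp for Ccnd1, 9409 for Ccnd2 and 9245 for Ccnd3). On this scale, Ccnd1 had 39.8% in mESCs, 74.3% in N2a and 77.3% in NIH/3T3, and Ccnd3 had 59.2%, 25.6% and 1.99%. Ccnd3 thus remained the leading D cyclin of mESCs per exonic length. When UMIs were divided by the whole gene from start to end, the order in mESCs turned, with 75.6% for Ccnd1 and 22.9% for Ccnd3, since the Ccnd3 gene spans 94858 bp and Ccnd1 9995 bp. Whether UMIs rise with length in this method, and whether reads in introns were counted, is not given in the sources used here. Which scale applies, the counts as they are or either length scale, is thus not settled, nor is the leading D cyclin of mESCs. The leading gene in N2a and NIH/3T3 was Ccnd1 on all 3 scales.

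**Figure D2:**
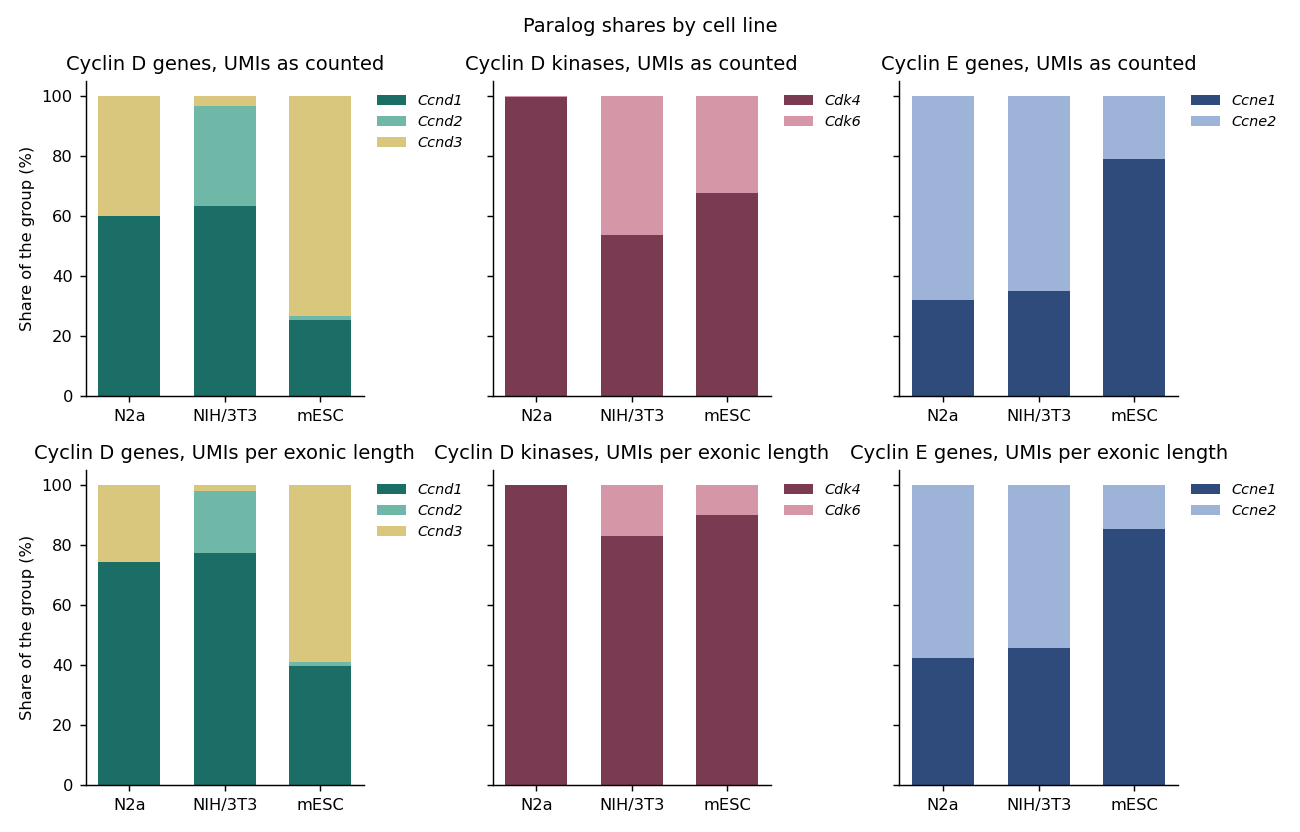
Shares of the paralogs within the cyclin D genes, the cyclin D kinases and the cyclin E genes (vertical axes, % of the group) for N2a, NIH/3T3 and mESCs, from UMIs as counted (top row) and from UMIs per exonic length (bottom row). As counted, Ccnd2 makes a visible part of the bar at 33.5% in NIH/3T3, Ccnd3 takes 73.2% in mESCs, Cdk6 is near 0 in N2a and Ccne1 leads in mESCs alone.

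The shares of a line could come from a mix of cells that each use 1 gene or from cells that use several. Only cells with at least 5 cyclin D UMIs allow a look at this, and these were 962 NIH/3T3 cells, 98 mESCs and 57 N2a cells. In the NIH/3T3 cells, 99.7% had a Ccnd1 UMI and 91.8% a Ccnd2 UMI, so most cells held both, with a median Ccnd1 share of 66.7%. Ccnd1 made up the majority in 71.1% of them and Ccnd2 in 16.7%. In the mESCs, Ccnd3 was the majority in 77.6% and Ccnd1 in 15.3%, with a median Ccnd3 share of 78.9%. The N2a cells had a median Ccnd1 share of 60.0%. Ccnd1 was seen in 94.7% of them and Ccnd3 likewise in 94.7%. These cells were deeper than the rest of their lines, with medians of 7252 UMIs in NIH/3T3, 11941 in mESCs and 20073 in N2a, and 49.1% of all N2a cells, 7.31% of NIH/3T3 cells and 39.0% of mESCs had no cyclin D UMI at all. At 1000 UMIs per cell, Ccnd1 and Ccnd2 were seen together in 222 NIH/3T3 cells, where the product of their separate shares gives 223.4.

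**Figure D3:**
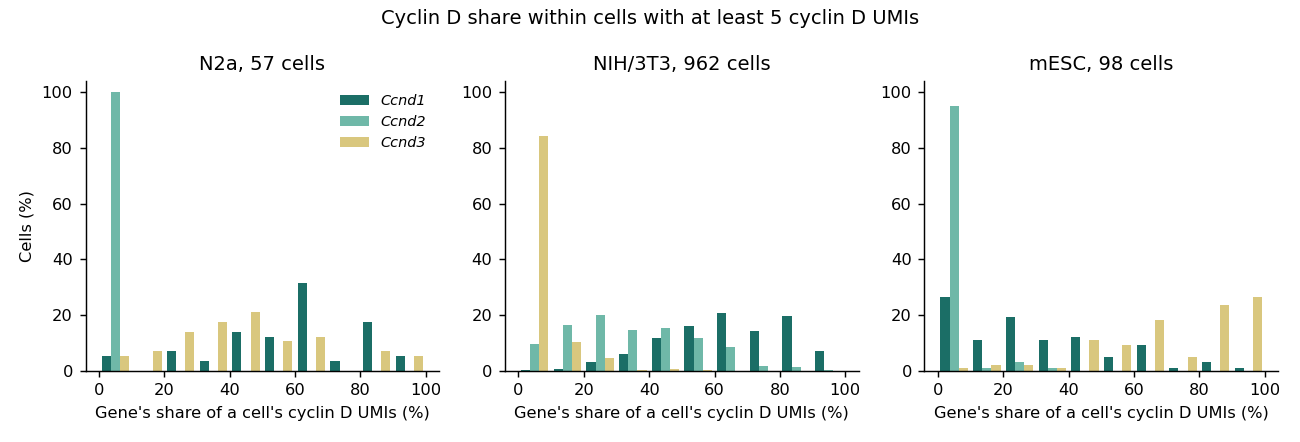
Share of a cell's cyclin D UMIs taken by each gene (horizontal axes, %, in bins of 10) against the percent of cells (vertical axes), in cells with at least 5 cyclin D UMIs. NIH/3T3 cells spread over mixtures of Ccnd1 and Ccnd2, with a median Ccnd1 share of 66.7%, and mESCs gather towards high Ccnd3 shares, with a median of 78.9%.

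Cdk4, a kinase partner of all D cyclins, varied least among the members between the highest and lowest line. It had 303.2 CPM in NIH/3T3 (293.3 to 313.4), 222.6 in N2a (215.8 to 229.6) and 218.0 in mESCs (209.8 to 226.4). The BC1 ranges of all 3 lines overlapped, from 230.6 to 406.0, from 173.7 to 261.7 and from 177.3 to 280.8 CPM. N2a and mESCs had a ratio of 1.02 (0.972 to 1.07). A Cdk4 UMI was found in 71.5% of NIH/3T3 cells, 68.8% of N2a cells and 61.6% of mESCs.

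Cdk6, the other cyclin D kinase, had 260.7 CPM in NIH/3T3 (251.6 to 270.2), 103.8 in mESCs (98.2 to 109.6) and 0.668 in N2a (0.345 to 1.17). No BC1 range touched another, with 202.8 to 358.4 CPM in NIH/3T3, 72.3 to 146.4 in mESCs and at most 3.68 in N2a. The N2a level rested on 12 UMIs in 12 cells and was 0.256% of the NIH/3T3 level, above 5 of the 6 fibroblast markers in N2a (0% to 0.195%) and below Lgals1 at 21.5%. Cdk6 RNA could be carried over from mESCs as well. The mESC markers had from 0.0592% (Zfp42) to 0.500% (Esrrb) of their mESC level in N2a. Carried-over RNA and a low Cdk6 level of N2a itself cannot be told apart by these values. NIH/3T3 was 2.51-fold above mESCs (2.35 to 2.68), and mESCs were 155.3-fold above N2a (88.6 to 301.4). Cdk4 therefore took 99.7% of the UMIs of both kinases in N2a, 67.7% in mESCs (66.3% to 69.2%) and 53.8% in NIH/3T3 (52.6% to 55.0%). Per exonic length, where Cdk6 counts for less with 14421 bp against 3440 bp, the Cdk4 shares were 99.9%, 89.8% and 83.0%. At 1000 UMIs per cell, 105 NIH/3T3 cells had both kinases, with 120.1 from the product of their separate shares.

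Ccne1, 1 of the 2 cyclin E genes, was highest in mESCs at 124.7 CPM (118.6 to 131.1), against 40.3 in N2a (37.4 to 43.4) and 29.6 in NIH/3T3 (26.5 to 32.9). Its lowest BC1 sequence in mESCs, at 69.9 CPM, was above the highest in N2a, at 59.2, and in NIH/3T3, at 55.0. The ratio of mESCs to N2a was 3.09 (2.83 to 3.38) and that to NIH/3T3 was 4.22 (3.75 to 4.75). Ccne2, the paralog, was lowest in mESCs, with 33.1 CPM in mESCs (30.0 to 36.5), 54.7 in NIH/3T3 (50.6 to 59.1) and 85.5 in N2a (81.3 to 89.9). Its BC1 ranges overlapped, from 11.3 to 61.7, from 20.1 to 91.4 and from 53.1 to 152.0 CPM, and N2a was 2.58-fold above mESCs (2.31 to 2.89).

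The sum of both cyclin E genes differed less between lines than either gene, with 157.8 CPM in mESCs, 125.9 in N2a and 84.3 in NIH/3T3. Ccne1 gave 79.0% of it in mESCs (77.1% to 80.8%), 35.1% in NIH/3T3 (32.1% to 38.2%) and 32.04% in N2a (30.1% to 34.0%). The share in single BC1 sequences was 53.1% to 91.5% in mESCs, 20.8% to 61.1% in NIH/3T3 and 18.6% to 46.2% in N2a, so that the mESC and NIH/3T3 ranges met at their edges. Per exonic length the Ccne1 shares were 85.4%, 45.6% and 42.2%. Ccne2 thus led in N2a and NIH/3T3 and Ccne1 in mESCs on both scales.

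Cdk2, the kinase of both E cyclins, had 55.0 CPM in mESCs (51.0 to 59.3), 52.9 in N2a (49.6 to 56.4) and 23.0 in NIH/3T3 (20.3 to 25.9). The ratio of mESCs to N2a was 1.04 (0.941 to 1.15), and N2a was 2.30-fold above NIH/3T3 (2.01 to 2.64). The BC1 ranges overlapped between all lines.

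A ratio of CPM + 1 above 2 in either direction was used as a fixed rule of size, over 17287 genes with at least 20 UMIs in the 3 lines together. Between N2a and NIH/3T3, 4 of the 8 genes were past it, Ccnd1, Ccnd2 and Cdk6 higher in NIH/3T3 and Cdk2 higher in N2a, beside 35.4% of all genes. Between N2a and mESCs, 5 of 8 were past it, Ccnd2, Ccnd3, Cdk6 and Ccne1 higher in mESCs and Ccne2 higher in N2a, beside 40.2% of all genes. The Ccnd2 call rested on 3 UMIs in N2a and 37 in mESCs. With a pseudocount of 5 CPM, 4 members were past the rule in this pair. Between NIH/3T3 and mESCs, 6 of 8 were past it, Ccnd1, Ccnd2 and Cdk6 higher in NIH/3T3 and Ccnd3, Ccne1 and Cdk2 higher in mESCs, beside 42.1% of all genes. With so large a share of genes past the rule, the counts say little about these 8, and Cdk4 was past it in no pair.

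The level of a G1 gene also depends on where cells stand in the cycle. Cells with at least 2000 UMIs were scored by the percent of their UMIs in 41 S phase genes and 52 G2/M genes, none of them a member. The upper 25% of each line by each score was set apart. Ccne2 was left out of the S phase list only because it is a member. A higher Ccne2 level with a high S score is therefore close to given by the choice of that list. This gave 457, 418 and 398 cells with a high S score in N2a, NIH/3T3 and mESCs, as many with a high G2/M score, and 1095, 913 and 997 others, while 61, 26 and 68 cells high in both were left out. The groups are ranges of a score and not types of cell: 272, 334 and 548 cells lay within 10% of the S limit and 362, 170 and 361 within 10% of the G2/M limit. The median S score of the other cells was 0.755% in mESCs, above the 0.723% that set the limit in N2a, so equal names do not mean equal scores between lines.

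Ccne2, taken from the S phase list as a member, was higher in cells with a high S score in all 3 lines. It had 190.3 CPM there against 60.2 in the other N2a cells, a ratio of 3.16 (2.83 to 3.54), 117.1 against 46.7 in NIH/3T3, a ratio of 2.51 (2.12 to 2.97), and 52.6 against 30.4 in mESCs, a ratio of 1.73 (1.37 to 2.18). Ccne1 moved with it in N2a, with 69.6 against 33.9 CPM (ratio 2.05, 1.73 to 2.42), and in NIH/3T3, with 55.3 against 29.2 (ratio 1.89, 1.50 to 2.38). In mESCs the Ccne1 level was 163.9 CPM against 119.3, a ratio of 1.37 (1.21 to 1.55). Cdk2 had 83.9 against 42.9 CPM in N2a (ratio 1.96, 1.68 to 2.27), and its ratios in NIH/3T3 and mESCs were 1.30 (0.965 to 1.74) and 1.26 (1.04 to 1.52). Whether these ratios differ between lines was not tested. When cells were thinned to 1000 UMIs, the Ccne2 ratio in N2a was 4.83, with a Ccne2 UMI in 205 of all kept N2a cells. Ratios in thinned cells, here and below, come from 1 random draw, rest on few UMIs and have no interval.

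In cells with a high G2/M score, both E cyclins were low in NIH/3T3, with 8.32 against 29.2 CPM for Ccne1 (ratio 0.285, 0.179 to 0.435) and 17.6 against 46.7 for Ccne2 (ratio 0.378, 0.276 to 0.510). Thinned to 1000 UMIs, the Ccne1 ratio there was 0.137, but only 64 of all kept NIH/3T3 cells then had a Ccne1 UMI. The ratios in N2a were 0.680 for Ccne1 (0.536 to 0.857) and 0.657 for Ccne2 (0.549 to 0.782), and in thinned cells 0.916 and 0.899. Those in mESCs were 0.872 for Ccne1 (0.757 to 1.00) and 0.724 for Ccne2 (0.531 to 0.974). The measured levels of the E cyclins were highest in the high S range and lowest in the high G2/M range in every line, although the Ccne1 interval in mESCs reached 1.00.

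**Figure D4:**
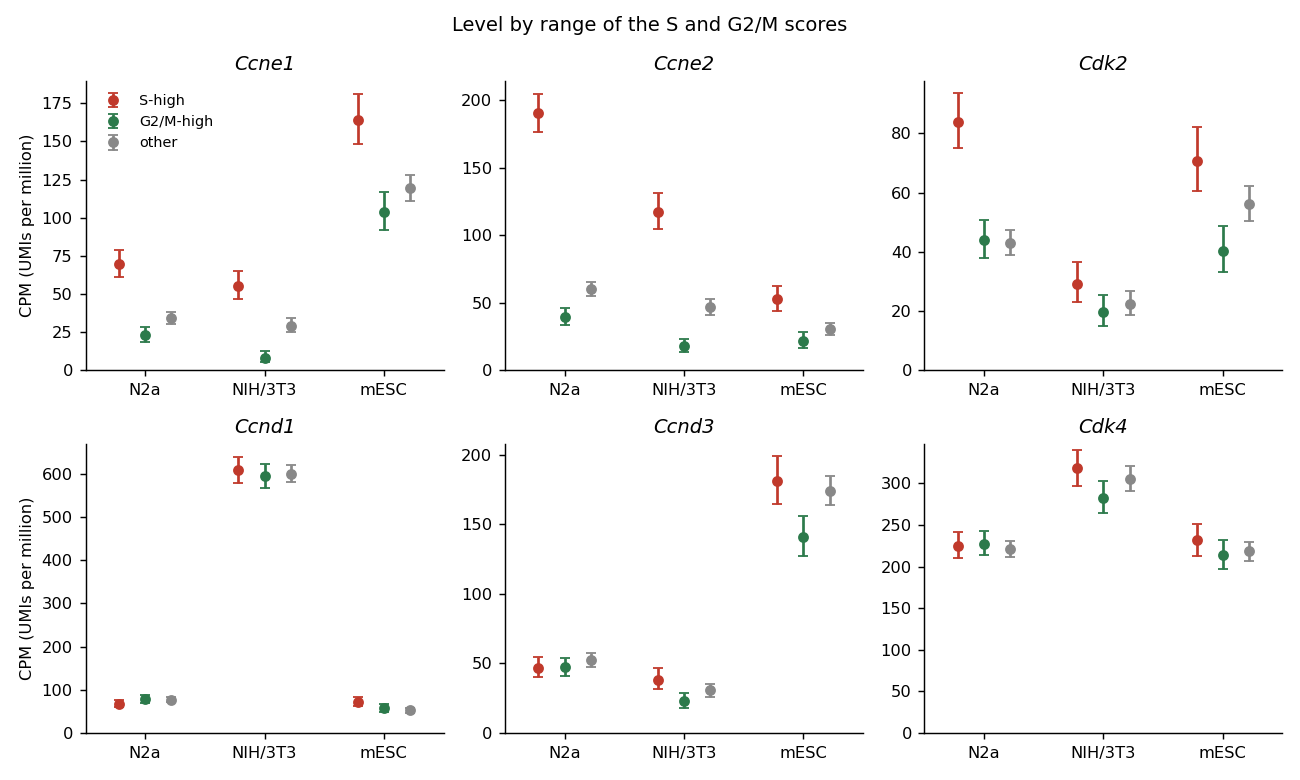
Level of 6 of the genes in CPM (vertical axes, linear, from 0) in cells with a high S score, a high G2/M score and the other cells of N2a, NIH/3T3 and mESCs, with 95% Poisson intervals as whiskers. Ccne1 and Ccne2 are highest in the cells with a high S score in every line, while the intervals of Cdk4 lie close together within each line.

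At full depth in N2a and NIH/3T3, the D cyclins and kinases listed next had ratios closer to 1 than the E cyclins. This did not hold in mESCs, where Ccnd1 with a high S score had a ratio of 1.38 and Ccne1 1.37. For Ccnd1, Ccnd3 and Cdk4 in every line, for Ccnd2 in NIH/3T3 and for Cdk6 in NIH/3T3 and mESCs, the ratios to the other cells were between 0.742 and 1.38. Ccnd1 in NIH/3T3 had 609.4 CPM with a high S score, 595.6 with a high G2/M score and 600.5 in the other cells. The largest of these was that of Ccnd1 in mESCs with a high S score, 71.5 against 51.9 CPM (ratio 1.38, 1.14 to 1.66), which was 1.80 in cells thinned to 1000 UMIs, where that of Ccnd3 in NIH/3T3 went from 1.26 to 2.18. The smallest was that of Ccnd3 in NIH/3T3 with a high G2/M score (0.742, 0.552 to 0.989), which rested on 68 UMIs and was 1.95 when cells were thinned to 1000 UMIs. After thinning, only 61 of all kept NIH/3T3 cells had a Ccnd3 UMI and 116 of all kept mESCs a Ccnd1 UMI. The thinned ratios of both genes thus rest on few counts and show no change of direction. In mESCs, Ccnd3 had 140.9 CPM with a high G2/M score against 173.9 (ratio 0.810, 0.719 to 0.911). The leading cyclin D gene of each line was the same in all 3 ranges, with 59.0% to 62.3% of Ccnd1 in N2a, 63.0% to 63.5% of Ccnd1 in NIH/3T3 and 70.1% to 76.2% of Ccnd3 in mESCs.

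A ratio of CPM + 1 past 1.5 in either direction was then counted over genes with at least 100 UMIs in a line. The calls of Ccne2 with a high S score are no separate result, since it was taken from the S phase list. With a high S score, 3 of the 6 members that passed this minimum in N2a were past it (Ccne1, Ccne2 and Cdk2), beside 6.17% of all genes, 2 of 8 in NIH/3T3 (Ccne1 and Ccne2), beside 4.08%, and 1 of 7 in mESCs (Ccne2), beside 4.25%. With a high G2/M score, 1 of 6 was past it in N2a (Ccne2), beside 5.48% of all genes, 2 of 8 in NIH/3T3 (Ccne1 and Ccne2), beside 5.66%, and 0 of 7 in mESCs, beside 3.49%. The N2a call of Ccne2 lay close to the limit, and its ratio of 0.657 ranged from 0.524 to 0.899 over the alternatives, with the call lost in thinned cells, with cells weighted equally (0.791), with wider score ranges (0.787) and without the deepest 5% of cells. At 1000 UMIs per cell, Ccne1 and Ccne2 were seen together in 18 N2a cells, 7 NIH/3T3 cells and 10 mESCs, where the products of their shares give 9.00, 3.33 and 9.28.

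Other genes of the pathway were read by how far the highest line stood above the next. Past 2-fold, this held for N2a in 11.0% of all genes tested, for NIH/3T3 in 9.74% and for mESCs in 13.6%. Among the 4 INK4 inhibitor genes, whose INK4 proteins block CDK4 and CDK6, Cdkn2a was highest in N2a with 73.8 CPM. It had 30.8 CPM in mESCs and 0.513 in NIH/3T3, a line known to lack the Cdkn2a locus. Counts per gene do not separate the transcripts of Cdkn2a, so the level of its INK4 transcript is not known. Cdkn2c was highest in NIH/3T3 with 63.1 CPM, against 7.07 in N2a and 2.84 in mESCs. Cdkn2b, next to Cdkn2a on the chromosome, had no UMI in NIH/3T3, which allows up to 0.256 CPM, and 1.11 and 1.87 CPM in N2a and mESCs. Cdkn2a was thus highest in N2a and Cdkn2c in NIH/3T3, and a link of either to the Cdk6 level was not tested.

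Of the 3 CIP/KIP inhibitors of cyclin-CDK complexes, 1 was past 2-fold, Cdkn1c, at 2.191 CPM in mESCs and without a UMI in NIH/3T3. None of the 3 pocket proteins, of the 4 genes of the CDK-activating kinase and CDC25A, or of the 7 genes of cyclin and p27 turnover had a line past 2-fold above the next (0 in each list). Among the 10 E2F and DP factors, which act downstream of the pocket proteins, 1 was past it, Tfdp2, with 154.6 CPM in mESCs, 68.0 in N2a and 55.0 in NIH/3T3. Of the 5 genes for cyclin A, cyclin B and CDK1, which follow the G1 kinases in the cycle, Ccnb2 was past it with 136.9 CPM in mESCs, 56.1 in N2a and 33.3 in NIH/3T3, and Ccna1 had no UMI in N2a or NIH/3T3.

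Ccnd1 is known as a target of ERK and of Wnt signalling, and the mESC medium held a MEK inhibitor, which blocks ERK activation, and a GSK3 inhibitor, which turns on Wnt targets. Of 13 ERK target genes, 1 was past 2-fold highest in mESCs, 3 in N2a and 3 in NIH/3T3, beside 13.6%, 11.0% and 9.74% of all genes. Fosl1, an AP-1 factor, had 187.8 CPM in NIH/3T3, 0.812 in mESCs and 0.501 in N2a. Egr1, an immediate early gene, was highest in N2a at 202.4 CPM, next in NIH/3T3 at 30.9 and lowest in mESCs at 6.09. Phlda1 had 107.9 CPM in NIH/3T3, 23.2 in N2a and 10.9 in mESCs. The list was not of 1 direction, since Etv5, named after its values were seen, was highest in mESCs with 320.9 CPM, against 92.3 in N2a and 53.2 in NIH/3T3.

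Of 9 Wnt target genes, 6 were past 2-fold highest in mESCs, 0 in N2a and 0 in NIH/3T3, beside 13.6%, 11.0% and 9.74% of all genes. Cdx1 had 35.7 CPM in mESCs against 0.223 in N2a and 0.0855 in NIH/3T3. Notum, which makes an inhibitor of Wnt proteins, had 24.7 CPM against 0.278 and 0.0855, and the factor gene Tcf7 had 32.1 against 0.724 and 0.940. The others past it were low in mESCs too, at 9.82 CPM for Axin2, 2.03 for Nkd1 (25 UMIs) and 1.14 for Sp5 (14 UMIs). Sp5 had no UMI in N2a or NIH/3T3 and Axin2 none in NIH/3T3. Ccnd1 itself was lowest in mESCs, at 58.4 CPM, and the part of either inhibitor in its level was not tested.

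The S phase genes summed to 8038 CPM in mESCs, 5206 in N2a and 5189 in NIH/3T3. Of these 41 genes, 7 were past 2-fold highest in mESCs, beside 13.6% of all genes. The G2/M genes summed to 11976 CPM in mESCs, 10205 in NIH/3T3 and 8118 in N2a. Of these 52 genes, 3 were past 2-fold highest in mESCs and 1 in NIH/3T3, beside 13.6% and 9.74% of all genes. Ccne1 and Ccnd3 had their highest level in mESCs as well, while Cdk2 was nearly equal in mESCs and N2a (55.0 and 52.9 CPM). The part of cycle position in these levels was not tested.

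**Figure D5:**
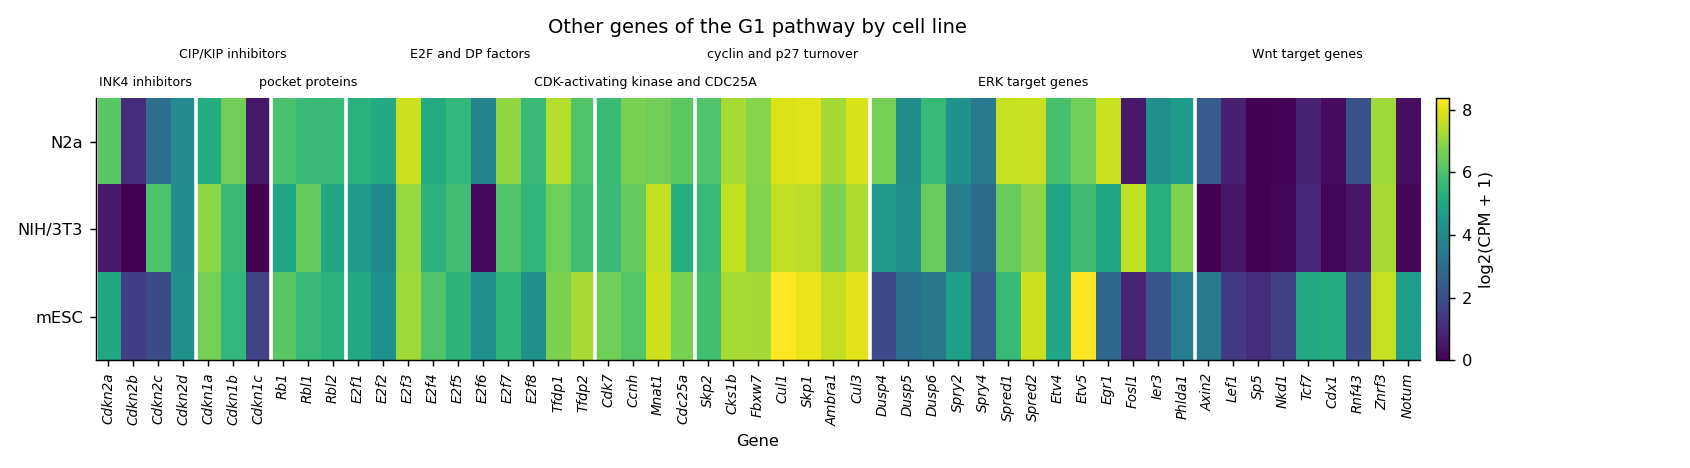
Level of 8 lists of other G1 pathway genes in N2a, NIH/3T3 and mESCs (rows), coloured by log2(CPM + 1), with 1 column per gene and white lines between lists. Cdkn2a is near 0 in NIH/3T3 at 0.513 CPM, Fosl1 stands out in NIH/3T3 at 187.8 CPM, and Cdx1, Notum and Tcf7 stand out in the mESC row.

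For each member, the genes with the most similar level over the 3 lines were sought among 9522 genes with at least 20 CPM in a line, by the distance of log2(CPM + 1). With 3 lines such a match is loose. Nearest were Esd and Cst3 for Ccnd1 (distances 0.40 and 0.57), Met and Pak3 for Ccnd2 (0.32 and 0.32) and Ccnb2 and Slc25a36 for Ccnd3 (0.37 and 0.46). For the kinases they were Ccdc88a and Ddx1 for Cdk4 (0.13 and 0.14), Ly6a and Pakap for Cdk6 (0.25 and 0.27) and Chfr and Gfm2 for Cdk2 (0.19 and 0.21). For the E cyclins they were Tm7sf3 and Rnaseh2b for Ccne1 (0.16 and 0.31) and Jmjd6 and Nop16 for Ccne2 (0.10 and 0.15). Met, which encodes the receptor of hepatocyte growth factor, had 259.5 CPM in NIH/3T3, 3.17 in mESCs and 0.278 in N2a, nearly the levels of Ccnd2.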

How the data were processed

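The authors split the reads of 1 CapSeq library by BC1, trimmed the template switch sequence with Cutadapt, aligned and counted with STARsolo on GRCm39 with GENCODE M30 and deposited UMI counts per gene and barcode for N2a, NIH/3T3 and mESCs, with no cell filter. The feature mode, the strand setting and the cell calling rule are not given in the sources used here. The pooled matrix of the same reads served only as an alternative. No doublet caller was run.

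From the deposited counts, cells were kept at 1000 UMIs and at most 20% mitochondrial UMIs, the limits of the study's methods. No barcode was shared between the line matrices (0 barcodes). UMIs were summed over cells into CPM, and the upper limit set by 0 UMIs was put at 3 counts. Depth in kept cells was 11697865 UMIs in NIH/3T3, 12322098 in mESCs and 17955221 in N2a. Gene positions and lengths came from GENCODE M39, where 32953 of 33565 gene identifiers were found. Ratios between lines used a pseudocount of 1 CPM for the rule of size and none where an interval is given. Ccnd1, Ccnd2 and Ccne2 had no entry in the promoter table.

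The 8 members and all gene lists were chosen with earlier results of these data known. Genes named from other lists had at least 20 CPM in a line and a ratio past 2 to the next line, at most 3 per list, or no UMI in a line, and for each member the 2 nearest genes were named. Gata3, Hand2, the fibroblast markers, Etv5, Nkd1 and the neighbouring genes Tspan31 and Ints8 were named for other reasons given beside them. The level of 1 N2a marker is not reported here. Alternatives changed the cell limits, the denominator, the weight of cells, the depth, the length scale and the class limits. The steps were tested on simulated data. The tools were numpy 2.4.6, pandas 2.3.3, scipy 1.17.1 and matplotlib 3.10.9 under Python 3.11.15.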

Additional observations from a re-analysis of the deposited data

How the results depend on the processing

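Of 180 recomputed paralog shares, 148 moved by less than their interval and none changed which gene led, except on the gene span scale in mESCs. The change of denominator, with 15 of these 148, could not move a share. Per exonic length, the shares for N2a, NIH/3T3 and mESCs, in that order here and next, were 74.3%, 77.3% and 39.8% of Ccnd1, of Ccnd3 25.6%, 1.99% and 59.2%, of Ccnd2 in NIH/3T3 20.8%, of Ccne1 42.2%, 45.6% and 85.4%, and of Cdk4 99.9%, 83.0% and 89.8%. Per gene span, Ccnd1 had 93.4%, 83.3% and 75.6%, Ccnd3 6.55%, 0.438% and 22.9%, Ccnd2 in NIH/3T3 16.3%, Ccne1 38.9%, 42.2% and 83.6%, and Cdk4 99.99%, 96.2% and 97.9%. Thinned to 1000 UMIs, N2a had 62.4% of Ccnd1, 0% of Ccnd2, 37.6% of Ccnd3 and 99.3% of Cdk4. With cells weighted equally, NIH/3T3 had 62.3% of Ccnd1 and 34.4% of Ccnd2. All 42 recomputed counts of members past a fold between lines stayed within 1.5 times, a wide limit. Between N2a and NIH/3T3 the count went from 4 to 6 at 1.5-fold, and between NIH/3T3 and mESCs from 6 to 4 at 3-fold. Between N2a and mESCs it went from 5 to 4 at 3-fold and likewise with a pseudocount of 5 CPM. Dropping the minimum of UMIs could not change a count, since all members passed it. Of 240 recomputed levels 34 moved beyond their interval, 21 of them when mitochondrial and ribosomal protein genes left the denominator. Of 620 ratios between score ranges 29 moved, 19 of them in thinned cells, where counts are few. The cell limits of 500 and 2000 UMIs gave 48 ratios each that could not move, because the score ranges already needed 2000 UMIs. The use of all barcodes was not applied to the score ranges, and 4 thinned ratios could not be computed. No paired analysis was possible because all lines were in 1 library with no replicates. Depth limited statements on Ccnd2 and Cdk6 in N2a, where 3 counts correspond to 0.167 CPM.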
